A study of Mus musculus with 7 samples.

Results

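Translation initiation factors are the proteins that bring the ribosome, the initiator tRNA and a messenger RNA together at the start codon. Their messages were taken as the rows of the deposited expression table with a gene name beginning Eif1 to Eif6, the Eif2ak kinases being left out, and these were 51 of 13376 rows. Of the 51 rows, 47 name a single gene, 2 merge a member with other genes and 2 name pseudogenes. Expression was measured in C2C12 cells, an established mouse myoblast line, kept proliferating and treated with an siRNA against the long noncoding RNA lnc-31 (2 libraries) or with a scrambled siRNA (2 libraries). C2C12 cells were also used for a pull-down with biotinylated antisense probes, either the specific set named ODD, taken here as the lnc-31 probes (1 library), or a lacZ control set (1 library), and an input library was not analysed here. All groups share this 1 line. Since the labels name no separate cultures, a p-value here covers sample-to-sample spread alone, part of which may be technical.

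Initiation begins when eIF2, a GTP-binding protein of 3 different subunits, carries the initiator tRNA to the small ribosomal subunit with eIF1, eIF1A, eIF3 and eIF5. The cap-binding complex eIF4F, made of eIF4E, the scaffold eIF4G and the helicase eIF4A, brings in the messenger RNA, and repressors encoded by the Eif4ebp genes bind eIF4E and keep it from eIF4G. Phosphorylation of eIF2 under stress blocks its exchange factor eIF2B, which lowers bulk initiation while favouring a few messages such as Atf4, and in growing myoblasts these steps set the rate of protein synthesis.

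Values are FPKM, the authors' fragment counts scaled to transcript length and library size, so levels can be set side by side between genes. Summed over all rows of the table, they came to 2141000 and 2201000 FPKM with lnc-31 siRNA, against 1516000 and 2466000 FPKM with scrambled siRNA. The main fit added no further scaling. No row carries the name of lnc-31. The row that names Mir31, whose host transcript lies at the lnc-31 locus, merges it with the unnamed transcript XLOC_026180. It read 12.1 and 14.1 FPKM with lnc-31 siRNA, against 13.4 and 15.6 FPKM with scrambled siRNA, and these groups overlapped. This merged row showed no fall, but it is not a reading of lnc-31 alone, so the knockdown cannot be judged from it. Directions are given for the libraries labelled lnc-31 siRNA. Of 6 myoblast markers 5 had a row, among them Myod1, Myf5 and Des, while Pax7 had none, and none of 4 adipocyte or of 4 endothelial and blood markers had a row. Summed over the myoblast markers, the level was 483 and 496 FPKM with lnc-31 siRNA, against 384 and 398 FPKM with scrambled siRNA. Of these 5 rows 4 were called higher, Myod1, Des and Cdh15 with log2 fold changes of 0.36, 0.24 and 0.25, and Myog with 0.73. Myog read 107 and 108 FPKM with lnc-31 siRNA, against 58.0 and 71.7 FPKM with scrambled siRNA, and so made up a large part of the rise of the sum. Its change lay near the median of the differentiated muscle list (0.77) rather than near the other myoblast markers. Myf5 went the other way without overlap (-0.10) and was not called. The 6 differentiated muscle markers, all of which passed the test upward, summed to 282 and 294 FPKM with lnc-31 siRNA, against 158 and 173 FPKM with scrambled siRNA. Of 4 fibroblast markers 2 had a row and summed to 16.3 and 18.2 FPKM with lnc-31 siRNA, against 10.5 and 11.6 FPKM with scrambled siRNA. Dcn was called higher (log2 fold change 0.75), while Pdgfra was not called (0.046). The osteoblast, epithelial and neural lists had 1 row each of 3 markers, with at most 11.2 FPKM in any library, and the 2 of these rows that passed the filter were not called. The part of these shifts in the changes below was not tested, and in bulk libraries fewer cells with a message and less of it per cell cannot be told apart. The library lnc-31 siRNA 1 stood apart on the first principal component of all tested rows (score 39.1, with 41.4% of the variance), while the other libraries lay between -16.3 and -10.4.

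Most initiation factor messages stood within 10 percent of the scrambled siRNA level, and those that passed the test were Eif4ebp1, which rose, and Eif2s3x and Eif2d, which fell. All 51 rows passed the filter of a mean of 1 FPKM, and limma called 3 of them at an adjusted p under 0.05, or 5.88%, against 12.4% of all 11500 tested rows. By direction, 1 of 51 was called higher against 5.64% of all tested rows, and 2 of 51 were called lower against 6.78%. The gap between these shares depended on the scaling and on single libraries. Under quantile normalization 6 of 51 were called (11.8%; 4 higher, 2 lower), against 16.8% of all tested rows, and under median of ratios scaling 7 of 51 (13.7%; 4 higher, 3 lower), against 16.8%. With scrambled siRNA 1 left out the count was 1 of 51 (1.96%), against 2.51% of all tested rows, and with scrambled siRNA 2 left out it was 1 of 51, against 2.26%. With lnc-31 siRNA 1 left out it was 2 of 51 (3.92%), against 4.27%, and with lnc-31 siRNA 2 left out it was 2 of 51, against 3.61%. Initiation factor messages are abundant, with a median of 84.5 FPKM against 14.2 FPKM over all tested rows, and at mean levels from 10 FPKM upward 3 of 49 were called, against 14.9% of all such rows. The median log2 fold change, on the log2(FPKM + 1) scale used throughout, was -0.015 for the members and -0.0067 for all tested rows. The size of the change was under 10 percent in 44 of 51 rows (86.3%), against 61.9% of all tested rows and 66.2% of those at 10 FPKM or above. The 2 groups of libraries did not overlap in 28 of 51 rows (54.9%), against 60.2% of all tested rows, and 12 of 51 (23.5%) had an unadjusted p under 0.05, against 30.9%. Summed over all 51 rows, the initiation factors read 7173 and 7412 FPKM with lnc-31 siRNA, against 7182 and 7307 FPKM with scrambled siRNA, and the groups overlapped.

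**Figure D1:**
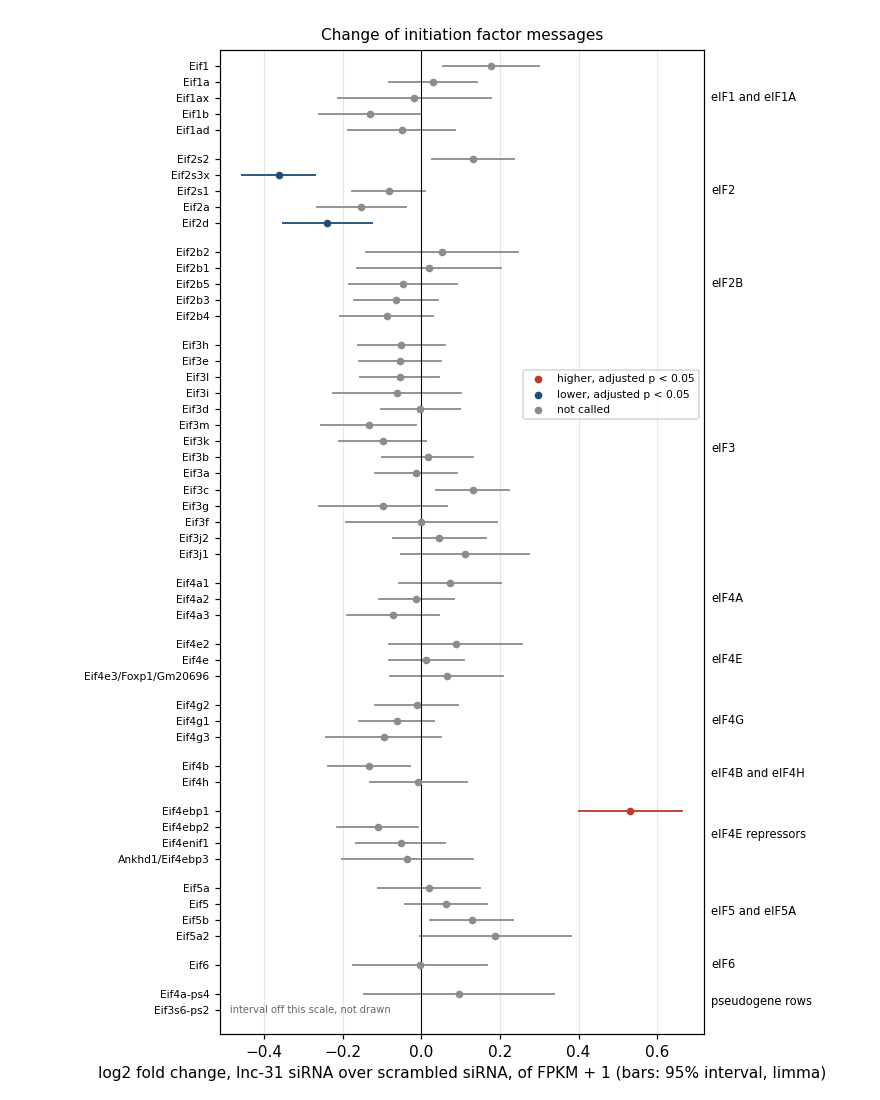
Log2 fold change of each initiation factor row, lnc-31 siRNA over scrambled siRNA, on the log2(FPKM + 1) scale, with its 95% interval from limma, grouped by factor. Eif4ebp1 lies at 0.53, Eif2s3x at -0.36 and Eif2d at -0.24, and the other 48 rows were not called (the interval of the pseudogene row Eif3s6-ps2 runs off the scale, and the row is not drawn).

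The member that rose encodes a repressor of the cap-binding step. Eif4ebp1 encodes an eIF4E-binding protein whose grip on eIF4E is released when the kinase mTORC1 phosphorylates it, and in mouse cells it is known as a target of the stress factor ATF4. The gene spans chromosome 8, 27260327 to 27275656 (GRCm38.p6). Its message read 122 and 133 FPKM in the lnc-31 siRNA libraries, against 88.4 and 86.6 FPKM in the scrambled siRNA libraries. Both lnc-31 siRNA libraries were higher than both scrambled siRNA libraries, and the group means were 127 ± 7.70 FPKM with lnc-31 siRNA and 87.5 ± 1.24 FPKM with scrambled siRNA (SD, n = 2 each). The change passed the test (log2 fold change 0.53, SE 0.053, adjusted p = 0.0077, limma), and it passed with any 1 library left out (adjusted p = 0.018 to 0.049). Eif4ebp2, the related repressor that is not called, read 47.4 and 48.6 FPKM with lnc-31 siRNA, against 51.1 and 52.7 FPKM with scrambled siRNA. Both lnc-31 siRNA values were the lower ones (log2 fold change -0.11, SE 0.042, adjusted p = 0.14, limma). Set against Eif4e, whose message was not called, the ratio of Eif4ebp1 to Eif4e was 1.41 and 1.51 with lnc-31 siRNA, against 1.04 and 0.999 with scrambled siRNA. The ratio of Eif4ebp2 to Eif4e was 0.550 and 0.556 with lnc-31 siRNA, against 0.599 and 0.608 with scrambled siRNA. The share of Eif4ebp1 in the summed message of both repressors was 71.9% and 73.2% with lnc-31 siRNA, against 63.4% and 62.2% with scrambled siRNA. That sum was 169 and 181 FPKM with lnc-31 siRNA, against 139.6 and 139 FPKM with scrambled siRNA. It covers Eif4ebp1 and Eif4ebp2 alone, and both the sum and the share follow from their separate changes. With 2 libraries against 2 an exact permutation test of such a ratio cannot go below p = 0.33, and ratios are given without a test. Eif4enif1, which encodes a transporter that carries eIF4E into the nucleus and to processing bodies, read 27.7 and 27.9 FPKM with lnc-31 siRNA, against 28.2 and 29.5 FPKM with scrambled siRNA (log2 fold change -0.053, adjusted p = 0.48, limma). Eif4ebp3, the remaining repressor, shares a row with Ankhd1, a gene of ankyrin repeats beside it, so the row cannot be given to either gene. That row read 23.0 and 23.8 FPKM with lnc-31 siRNA, against 25.5 and 22.6 FPKM with scrambled siRNA, and the groups overlapped.

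**Figure D2:**
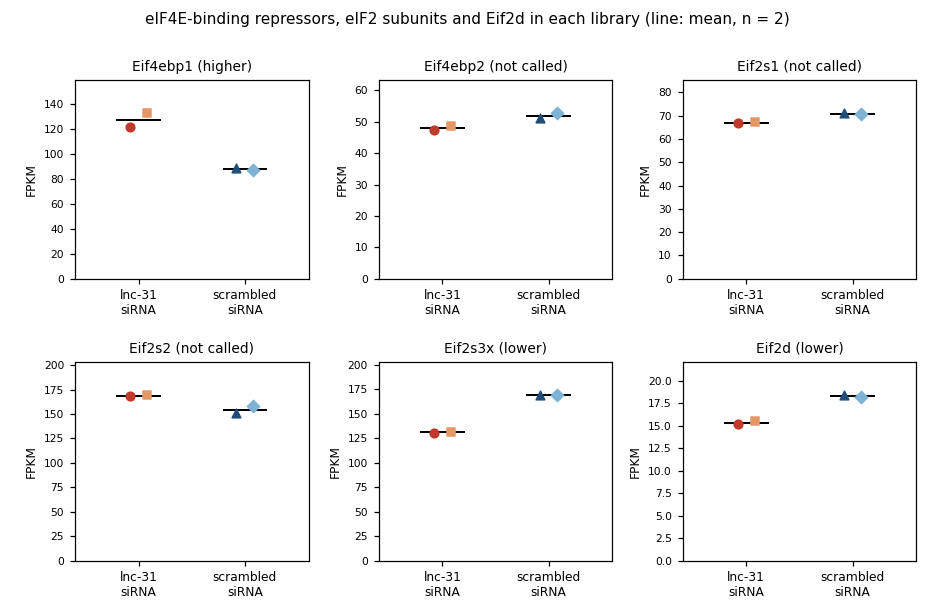
FPKM of Eif4ebp1, Eif4ebp2, the eIF2 subunits Eif2s1, Eif2s2 and Eif2s3x, and Eif2d in each of the 4 libraries, lnc-31 siRNA left of scrambled siRNA, with a line at each mean (n = 2) and axes from 0. Eif4ebp1 is at 122 and 133 FPKM with lnc-31 siRNA against 88.4 and 86.6 FPKM with scrambled siRNA, while Eif2s3x is at 131 and 132 FPKM with lnc-31 siRNA against 169 and 169 FPKM with scrambled siRNA.

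The messages of eIF4F itself gave no call. Eif4e, the cap-binding protein, read 86.2 and 87.5 FPKM with lnc-31 siRNA, against 85.4 and 86.8 FPKM with scrambled siRNA, and the groups overlapped (log2 fold change 0.013, adjusted p = 0.85, limma, 95% interval -0.082 to 0.11). Eif4e2, a cap-binding relative that does not bind eIF4G and acts in repression, read 91.2 and 98.5 FPKM with lnc-31 siRNA, against 84.4 and 94.2 FPKM with scrambled siRNA. Its groups overlapped. The cap-binding relative Eif4e3 shares a row with the transcription factor gene Foxp1 and Gm20696, and that merged row read 22.6 and 24.7 FPKM with lnc-31 siRNA, against 22.1 and 23.0 FPKM with scrambled siRNA.

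Among the scaffolds, Eif4g2 had the highest message. It encodes a relative of eIF4G that lacks the eIF4E-binding region, and read 377 and 384 FPKM with lnc-31 siRNA, against 379 and 389 FPKM with scrambled siRNA. Eif4g1, the main scaffold, read 166 and 163 FPKM with lnc-31 siRNA, against 173 and 170.5 FPKM with scrambled siRNA (log2 fold change -0.063, adjusted p = 0.33, limma). Both lnc-31 siRNA values lay below both scrambled siRNA values, yet the difference did not pass. Eif4g3, the scarcest of the scaffolds, read 18.6 and 17.1 FPKM with lnc-31 siRNA, against 19.6 and 18.7 FPKM with scrambled siRNA. None of the 3 scaffold rows was called, and their 95% intervals ran from -0.24 to 0.094 on the log2 scale.

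The helicase messages differed widely in level, and none was called. Eif4a1, the helicase of growing cells, read 918 and 966 FPKM with lnc-31 siRNA, against 894 and 896 FPKM with scrambled siRNA (log2 fold change 0.074, adjusted p = 0.39, limma). Its paralog Eif4a2 read 160.1 and 157 FPKM with lnc-31 siRNA, against 159 and 161 FPKM with scrambled siRNA. The share of Eif4a1 in their summed message was 85.2% and 86.0% with lnc-31 siRNA, against 84.9% and 84.8% with scrambled siRNA. Eif4a3, a helicase of the exon junction complex rather than of initiation, read 119 and 119 FPKM with lnc-31 siRNA, against 121 and 129 FPKM with scrambled siRNA. Eif4b and Eif4h both encode proteins that stimulate the helicase. Eif4b read 201 and 204 FPKM with lnc-31 siRNA, against 218 and 227 FPKM with scrambled siRNA. The lnc-31 siRNA values were the lower ones, and the difference did not pass (log2 fold change -0.13, SE 0.042, adjusted p = 0.099, limma), although median of ratios scaling called it lower (adjusted p = 0.044). Eif4h read 203 and 214 FPKM with lnc-31 siRNA, against 204 and 215 FPKM with scrambled siRNA, with overlapping groups.

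Of the 3 subunits of eIF2, which work in equal numbers as 1 protein, 1 passed the test, the gamma subunit, and it fell. Eif2s3x, on chromosome X from 94188709 to 94212651 (GRCm38.p6), encodes the gamma subunit, the part that binds GTP and the initiator tRNA. Its message read 131 and 132 FPKM in the lnc-31 siRNA libraries, against 169 and 169 FPKM in the scrambled siRNA libraries. Both lnc-31 siRNA libraries were lower, and replicates within each group lay within 1 FPKM of each other. The fall passed the test (log2 fold change -0.36, SE 0.037, adjusted p = 0.0080, limma), and it missed the threshold without scrambled siRNA 1 (adjusted p = 0.056) or without scrambled siRNA 2 (0.057). Eif2s1, the alpha subunit on which the stress kinases act, read 66.7 and 67.1 FPKM with lnc-31 siRNA, against 71.1 and 70.8 FPKM with scrambled siRNA (log2 fold change -0.083, SE 0.038, adjusted p = 0.20, limma). Eif2s2, the beta subunit, which contacts eIF5 and eIF2B, read 168 and 169 FPKM with lnc-31 siRNA, against 151 and 158 FPKM with scrambled siRNA. Both lnc-31 siRNA values were higher, opposite to the gamma subunit, and the difference did not pass (log2 fold change 0.13, SE 0.042, adjusted p = 0.10, limma). Quantile normalization and median of ratios scaling both called Eif2s2 higher (adjusted p = 0.038 and 0.040). The ratio of gamma to beta message was 0.775 and 0.777 with lnc-31 siRNA, against 1.12 and 1.07 with scrambled siRNA. The ratio of gamma to alpha message was 1.96 and 1.96 with lnc-31 siRNA, against 2.38 and 2.38 with scrambled siRNA, and that of beta to alpha was 2.53 and 2.52 with lnc-31 siRNA, against 2.12 and 2.23 with scrambled siRNA. These 3 ratios are built from the same 3 messages and are not separate results. None overlapped between the groups, while 60.2% of all tested rows did not overlap either, and none of the ratios was tested. The Y-linked counterpart of Eif2s3x has no row in the expression table and was not analysed here.

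Another 2 proteins named after eIF2 can bring in an initiator tRNA without it, and 1 of their messages fell. Eif2d, on chromosome 1 from 131153172 to 131187659, encodes such a factor, which also acts in recycling of ribosomes. It read 15.2 and 15.5 FPKM in the lnc-31 siRNA libraries, against 18.4 and 18.2 FPKM in the scrambled siRNA libraries. The groups did not overlap and the fall passed the test (log2 fold change -0.24, SE 0.046, adjusted p = 0.031, limma), but the call was lost with any 1 library left out. Its adjusted p was 0.11 without lnc-31 siRNA 1, 0.10 without lnc-31 siRNA 2, 0.13 without scrambled siRNA 1 and 0.12 without scrambled siRNA 2. Eif2a, which is not a subunit of eIF2 despite its name, read 32.4 and 31.7 FPKM with lnc-31 siRNA, against 36.6 and 34.9 FPKM with scrambled siRNA. Here too the groups did not overlap, and the difference did not pass (log2 fold change -0.15, SE 0.046, adjusted p = 0.088, limma). The factors Mcts1 and Denr form a pair related in sequence to Eif2d. Mcts1 read 37.5 and 38.4 FPKM with lnc-31 siRNA, against 37.1 and 39.4 FPKM with scrambled siRNA, and the row merging Denr with Ccdc62 read 65.4 and 68.9 FPKM with lnc-31 siRNA, against 60.4 and 65.6 FPKM with scrambled siRNA. Neither was called.

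Eif2s3x and Eif2d were the members that fell, and the 250 bases before their RefSeq start sites (GRCm38.p6) are shown for that reason, with the strand of the gene. Capitals mark a match to TGATGNAA, the core of the element bound by ATF4 with C/EBP factors such as CHOP, on either strand. The Eif2s3x window is chrX:94212652-94212901 on the minus strand and holds 1 match, read on the opposite strand, 96 to 89 bases before the start. The Eif2d window is chr1:131152957-131153206 on the plus strand and holds none. It ends at the start site of the RefSeq promoter table, 131153207, so its last 35 bases lie inside the gene span given above.
Eif2s3x: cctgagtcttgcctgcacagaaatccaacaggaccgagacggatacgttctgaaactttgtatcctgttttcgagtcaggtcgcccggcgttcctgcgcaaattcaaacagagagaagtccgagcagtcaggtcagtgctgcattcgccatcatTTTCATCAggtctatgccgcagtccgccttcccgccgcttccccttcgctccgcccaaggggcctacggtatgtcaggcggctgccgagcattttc
Eif2d: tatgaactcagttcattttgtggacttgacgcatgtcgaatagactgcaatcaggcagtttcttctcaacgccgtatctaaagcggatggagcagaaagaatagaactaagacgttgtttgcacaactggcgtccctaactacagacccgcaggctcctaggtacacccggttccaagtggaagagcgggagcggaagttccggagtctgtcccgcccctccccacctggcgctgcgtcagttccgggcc
A match describes these letters and says nothing of binding. Of the member genes 38 had a promoter sequence in the table, Eif4ebp1 not among them, and 1 of the 38 held this core in the 250 bases (2.63%), against 2.25% of 8590 genes of tested rows and 3.91% of all 27025 genes. CACGTG, the E-box core read by MYC and related factors, stood in the window of 9 of the 38 member genes (23.7%), against 10.2% of genes of tested rows and 6.86% of all genes. Those 9 genes, Eif1b, Eif3f, Eif3k, Eif4a1, Eif4e, Eif4g1, Eif4h, Eif5a and Eif5a2, include neither Eif2s3x nor Eif2d. TGACGTCA, the element of CREB and ATF proteins, stood in none of the 38, against 3.26% of genes of tested rows. A gene with several start sites counted once if any window matched, and CACGTG and TGACGTCA read the same on both strands. The motif searches were not among the planned results, and their shares were not tested. The genes compared with the members were not matched to them in message level or in number of start sites.

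**Figure D3:**
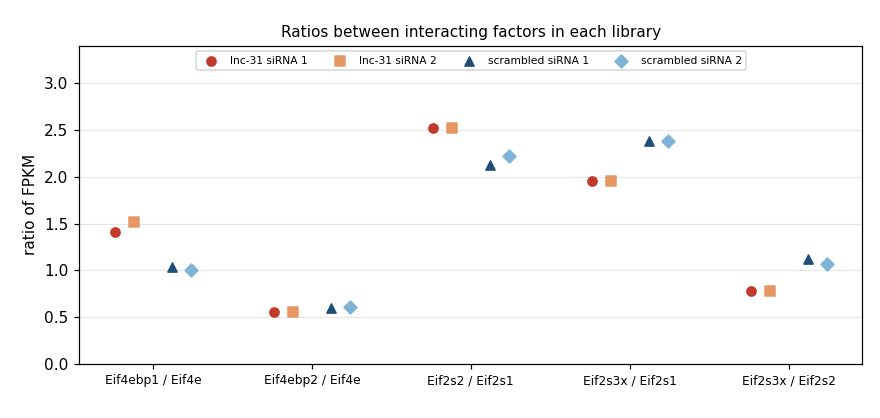
Ratios of FPKM between interacting factors in each of the 4 libraries, lnc-31 siRNA left of scrambled siRNA in each set. Eif4ebp1 to Eif4e is 1.41 and 1.51 with lnc-31 siRNA against 1.04 and 0.999 with scrambled siRNA, and Eif2s3x to Eif2s2 is 0.775 and 0.777 with lnc-31 siRNA against 1.12 and 1.07 with scrambled siRNA.

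The exchange factor eIF2B, which reloads eIF2 with GTP and is the point that eIF2 phosphorylation blocks, gave no call. None of its 5 subunit messages was called, their log2 fold changes ran from -0.089 to 0.052, and their 95% intervals lay between -0.21 and 0.25. The sum of the 5 rows was 194 and 189.6 FPKM with lnc-31 siRNA, against 189 and 194 FPKM with scrambled siRNA, with overlapping groups. Eif2b2, a subunit of the regulatory core, had the highest message and read 89.2 and 76.1 FPKM with lnc-31 siRNA, against 78.2 and 80.7 FPKM with scrambled siRNA. Eif2b4, another regulatory subunit, had the lowest and read 16.8 and 17.3 FPKM with lnc-31 siRNA, against 18.4 and 17.9 FPKM with scrambled siRNA. Both lnc-31 siRNA values were lower but the difference did not pass (log2 fold change -0.089, adjusted p = 0.27, limma). Eif2b5, the catalytic subunit, read 30.0 and 32.2 FPKM with lnc-31 siRNA, against 31.3 and 33.1 FPKM with scrambled siRNA, and Eif2b3, its partner, read 23.6 and 23.8 FPKM with lnc-31 siRNA, against 24.6 and 25.1 FPKM with scrambled siRNA. Eif2b1, the alpha subunit of the regulatory core, read 34.8 and 40.1 FPKM with lnc-31 siRNA, against 36.1 and 37.7 FPKM with scrambled siRNA.

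The start codon factors eIF1 and eIF1A gave no call in 5 rows. Eif1, which guards the choice of start codon, had the highest message of the group and read 563 and 588 FPKM in the lnc-31 siRNA libraries, against 518 and 500.2 FPKM in the scrambled siRNA libraries. Both lnc-31 siRNA values were higher, and the difference did not pass (log2 fold change 0.18, SE 0.049, adjusted p = 0.074, limma). Quantile normalization and median of ratios scaling both called Eif1 higher (adjusted p = 0.046 and 0.041). Its close paralog Eif1b read 29.6 and 31.7 FPKM with lnc-31 siRNA, against 33.1 and 34.2 FPKM with scrambled siRNA, also without overlap and in the opposite direction (log2 fold change -0.13, SE 0.052, adjusted p = 0.15, limma). The share of Eif1 in their summed message was 95% and 94.9% with lnc-31 siRNA, against 94.0% and 93.6% with scrambled siRNA. Reads of such near copies can be split between them by the authors' counting, which is uncertain for these paralogs and for Eif1a and Eif1ax. Eif1a read 85 and 85.7 FPKM with lnc-31 siRNA, against 81.2 and 86.1 FPKM with scrambled siRNA, and Eif1ax, its X-linked copy, read 71.0 and 83.4 FPKM with lnc-31 siRNA, against 77.8 and 78.1 FPKM with scrambled siRNA. In both rows the groups overlapped. Eif1ad, which encodes a protein with an eIF1A-like domain, read 28.5 and 30.7 FPKM with lnc-31 siRNA, against 30.0 and 31.5 FPKM with scrambled siRNA.

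None of the 14 rows of eIF3, the largest factor and the platform on which the others assemble, was called. Their log2 fold changes ran from -0.13 to 0.13 with a median of -0.033, and all 14 were under 10 percent in size. The summed eIF3 message was 1914 and 1966 FPKM with lnc-31 siRNA, against 1964 and 2024 FPKM with scrambled siRNA, and the groups overlapped. Among subunits of the core octamer, Eif3h was highest and read 338 and 344 FPKM with lnc-31 siRNA, against 346 and 360.0 FPKM with scrambled siRNA. Eif3e, which in human cells joins a module with eIF3d, read 309 and 312 FPKM with lnc-31 siRNA, against 317 and 328 FPKM with scrambled siRNA. Both were slightly lower in every lnc-31 siRNA library without passing (adjusted p = 0.48 and 0.43, limma).

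The eIF3 rows that stood farthest from 0 went in opposite directions. Eif3c, a core subunit that binds eIF1, read 113 and 114 FPKM with lnc-31 siRNA, against 103 and 103 FPKM with scrambled siRNA. Both lnc-31 siRNA values were higher and the difference did not pass (log2 fold change 0.13, SE 0.037, adjusted p = 0.079, limma), while quantile normalization and median of ratios scaling called it higher (adjusted p = 0.034 and 0.046). Eif3m, another core subunit, read 126 and 135 FPKM with lnc-31 siRNA, against 143 and 145 FPKM with scrambled siRNA (log2 fold change -0.13, SE 0.048, adjusted p = 0.13, limma). These groups did not overlap either. The other octamer members, Eif3a, Eif3f, Eif3k and Eif3l, had log2 fold changes between -0.099 (Eif3k) and -0.00049 (Eif3f). Eif3a, the largest subunit, read 107 and 109 FPKM with lnc-31 siRNA, against 107 and 111 FPKM with scrambled siRNA, and Eif3l read 189 and 183 FPKM with lnc-31 siRNA, against 193 and 193 FPKM with scrambled siRNA. Eif3f read 57.6 and 67.5 FPKM with lnc-31 siRNA, against 62.2 and 62.7 FPKM with scrambled siRNA, and Eif3k read 125 and 119 FPKM with lnc-31 siRNA, against 129 and 133 FPKM with scrambled siRNA.

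The peripheral eIF3 subunits gave no call either. Eif3b, a scaffold of propeller shape, read 117 and 124 FPKM with lnc-31 siRNA, against 119 and 119 FPKM with scrambled siRNA, and its partner Eif3i read 162 and 177 FPKM with lnc-31 siRNA, against 169 and 184 FPKM with scrambled siRNA. Eif3g, an RNA-binding subunit, read 72.5 and 74.1 FPKM with lnc-31 siRNA, against 73.7 and 83.5 FPKM with scrambled siRNA, and scrambled siRNA 2 alone was high. Eif3d, which can itself hold the cap of some messages in human cells, read 169 and 174 FPKM with lnc-31 siRNA, against 171 and 172 FPKM with scrambled siRNA, with a 95% interval of -0.10 to 0.098. The loosely bound subunit eIF3j is encoded by near-identical copies, so the split of reads between their rows is uncertain. Eif3j1 read 15.0 and 16.6 FPKM with lnc-31 siRNA, against 15.0 and 14.1 FPKM with scrambled siRNA, and Eif3j2 read 15.3 and 15.7 FPKM with lnc-31 siRNA, against 15.1 and 14.8 FPKM with scrambled siRNA. These were the lowest eIF3 rows. Leaving them aside, the ratio of the highest to the lowest eIF3 row was 5.86 and 5.09 with lnc-31 siRNA, against 5.57 and 5.75 with scrambled siRNA.

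**Figure D4:**
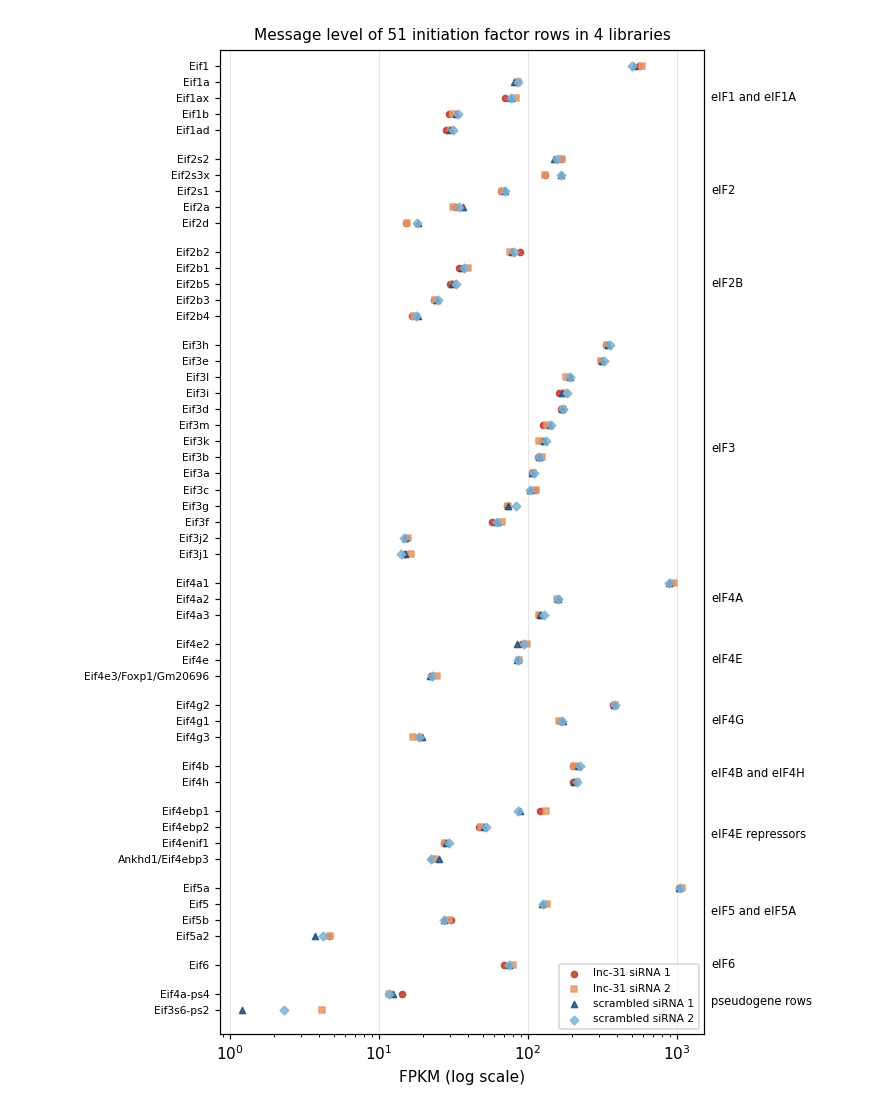
FPKM of the 51 initiation factor rows in each of the 4 libraries on a log axis, grouped by factor and ordered by mean within it. The rows run from Eif5a, at 1043 to 1089 FPKM, down to pseudogene rows, and points of the 2 groups mostly cover each other, with Eif4ebp1 and Eif2s3x as visible gaps (the value of 0 of Eif3s6-ps2 in lnc-31 siRNA 1 cannot be drawn).

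The late factors join the subunits and release eIF2. Eif5 encodes the protein that triggers GTP hydrolysis by eIF2 and read 129.6 and 135 FPKM with lnc-31 siRNA, against 125 and 128 FPKM with scrambled siRNA (log2 fold change 0.063, adjusted p = 0.36, limma). Eif5b, the GTPase of subunit joining, read 30.6 and 29.8 FPKM with lnc-31 siRNA, against 27.7 and 27.4 FPKM with scrambled siRNA. Its groups did not overlap and the difference did not pass (log2 fold change 0.13, SE 0.042, adjusted p = 0.11, limma). Eif5a, a hypusine-bearing protein that now counts as a factor of elongation and termination, had the highest message of all members and read 1043 and 1089 FPKM with lnc-31 siRNA, against 1045 and 1058 FPKM with scrambled siRNA. Eif4a1 and Eif1 came next in level, and this order held in all 4 libraries. The paralog Eif5a2 read 4.65 and 4.72 FPKM with lnc-31 siRNA, against 3.76 and 4.23 FPKM with scrambled siRNA (log2 fold change 0.19, SE 0.077, adjusted p = 0.17, limma). The share of Eif5a in their summed message was 99.6% in each of the 4 libraries. Eif6, which keeps the large ribosomal subunit from joining early, read 69.9 and 80.0 FPKM with lnc-31 siRNA, against 74.9 and 74.9 FPKM with scrambled siRNA. Its lnc-31 siRNA values lay on either side of the scrambled siRNA values, with a 95% interval of -0.17 to 0.17. The pseudogene rows cannot be told from their parent genes where reads are shared. Eif4a-ps4 read 14.3 and 11.7 FPKM with lnc-31 siRNA, against 12.4 and 11.7 FPKM with scrambled siRNA, and Eif3s6-ps2, named for the older symbol of Eif3e, was listed at 0 and at 4.18 FPKM with lnc-31 siRNA, against 1.21 and 2.32 FPKM with scrambled siRNA.

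Lists of genes that act on the initiation factors, or answer to them, were set beside them. Of 10 messages favoured or induced when eIF2 is phosphorylated, 10 were called higher, with a median log2 fold change of 0.75, against 5.64% called higher among all tested rows. This list was chosen with earlier results of these libraries known and is no independent evidence. Atf4, the stress transcription factor, read 468 and 471 FPKM with lnc-31 siRNA, against 349 and 367 FPKM with scrambled siRNA (log2 fold change 0.39, SE 0.047, adjusted p = 0.010, limma). Leaving out scrambled siRNA 1 gave an adjusted p of 0.069, and leaving out scrambled siRNA 2 gave 0.054, so the call rests on both. Asns, the asparagine synthetase, read 81.8 and 78.7 FPKM with lnc-31 siRNA, against 58.4 and 59.8 FPKM with scrambled siRNA (log2 fold change 0.44, adjusted p = 0.0073, limma). Atf5, a relative of Atf4, read 139 and 158 FPKM with lnc-31 siRNA, against 83.7 and 87.3 FPKM with scrambled siRNA (log2 fold change 0.79, adjusted p = 0.0056, limma). Ddit3, Trib3, Chac1, Sesn2, Nupr1 and Atf3 were also called higher, with log2 fold changes from 0.57 (Sesn2) to 1.22 (Trib3).

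Of 13 genes that write, erase or tune eIF2 phosphorylation, 2 were called higher and 0 lower (15.4%, against 12.4% of all tested rows; median log2 fold change -0.039), a share near that of all rows. Median of ratios scaling called 3 higher and 2 lower, and the fit with the replicate block 3 higher and 1 lower. Ppp1r15a, the stress-induced subunit that directs a phosphatase to eIF2 and is also one of the 10 above, read 15.6 and 15.7 FPKM with lnc-31 siRNA, against 9.80 and 9.29 FPKM with scrambled siRNA (log2 fold change 0.66, SE 0.053, adjusted p = 0.0056, limma). Impact, which holds back the kinase Eif2ak4, read 35.7 and 36 FPKM with lnc-31 siRNA, against 30.9 and 29.7 FPKM with scrambled siRNA. Its groups did not overlap (log2 fold change 0.23, SE 0.044, adjusted p = 0.029, limma), and its call was lost with any 1 library left out (adjusted p = 0.091 to 0.13) and with a constant prior variance (0.055). The kinases themselves were not called. Eif2ak4, which answers to uncharged tRNA, read 7.20 and 8.05 FPKM with lnc-31 siRNA, against 7.11 and 8.10 FPKM with scrambled siRNA, and Eif2ak3, the kinase of endoplasmic reticulum stress, read 5.16 and 5.44 FPKM with lnc-31 siRNA, against 5.37 and 5.72 FPKM with scrambled siRNA. Eif2ak1, the heme-sensing kinase, read 14.4 and 15.3 FPKM with lnc-31 siRNA, against 14.4 and 13.9 FPKM with scrambled siRNA. Eif2ak2, the kinase activated by double-stranded RNA, read 8.48 and 8.58 FPKM with lnc-31 siRNA, against 9.56 and 10.3 FPKM with scrambled siRNA, without overlap (log2 fold change -0.19, adjusted p = 0.092, limma). The phosphatase subunits Ppp1ca, Ppp1cc and Ppp1cb, which had the highest messages of this list, were not called, with log2 fold changes of -0.13, 0.032 and -0.039.

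**Figure D5:**
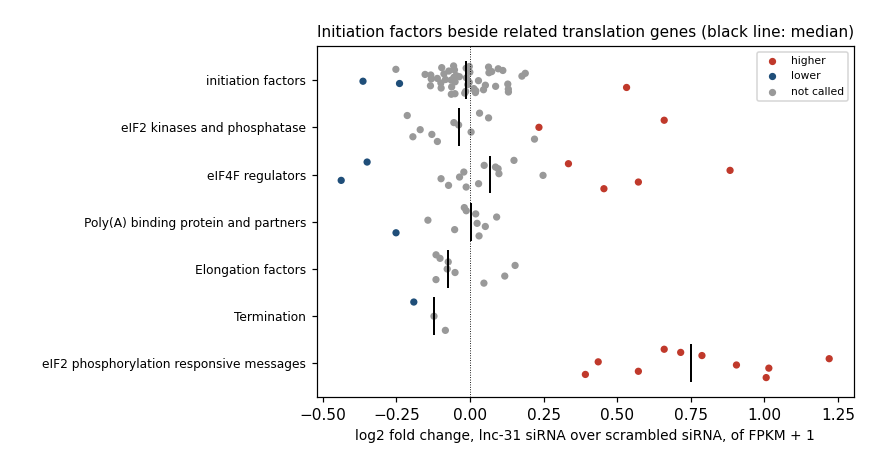
Log2 fold change of the initiation factor rows and of tested genes in 6 related translation lists, lnc-31 siRNA over scrambled siRNA, on the log2(FPKM + 1) scale, with a black line at each median and colour for the call. The initiation factors have a median of -0.015, and the 10 eIF2 phosphorylation responsive messages a median of 0.75 with every point called higher.

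Of 18 regulators of eIF4F and of the mTORC1 pathway that frees it, 4 were called higher and 2 lower (33.3%, against 12.4% of all tested rows; median log2 fold change 0.067). This list too was chosen with earlier results of these libraries known, so its share is no independent evidence. Ddit4, an inducible inhibitor of mTORC1, read 126 and 147 FPKM with lnc-31 siRNA, against 72.0 and 74.8 FPKM with scrambled siRNA (log2 fold change 0.88, SE 0.078, adjusted p = 0.0057, limma). Akt1s1, an inhibitory partner of mTORC1, read 59.8 and 63.4 FPKM with lnc-31 siRNA, against 48.4 and 48.8 FPKM with scrambled siRNA (log2 fold change 0.33, adjusted p = 0.014, limma), and Pdcd4, which binds eIF4A and blocks it, read 7.68 and 6.58 FPKM with lnc-31 siRNA, against 4.64 and 5.20 FPKM with scrambled siRNA (log2 fold change 0.45, adjusted p = 0.036, limma). Sesn2, a leucine-sensing brake on mTORC1, was the remaining gene that rose (log2 fold change 0.57, adjusted p = 0.0057, limma) and is also among the 10 stress messages. Rptor, the mTORC1 subunit that recruits the Eif4ebp repressors, read 11.8 and 11.7 FPKM with lnc-31 siRNA, against 15.9 and 16.5 FPKM with scrambled siRNA (log2 fold change -0.44, SE 0.049, adjusted p = 0.0096, limma). Larp1, which binds the start of messages for the translation machinery, read 36.1 and 34.7 FPKM with lnc-31 siRNA, against 45.4 and 45.3 FPKM with scrambled siRNA (log2 fold change -0.35, adjusted p = 0.011, limma). Calls of Ddit4 and Sesn2 held with any 1 library left out, and that of Rptor was lost without scrambled siRNA 2 (adjusted p = 0.060). The call of Larp1 was lost without scrambled siRNA 1 (0.067) and without scrambled siRNA 2 (0.066). That of Akt1s1 was lost without lnc-31 siRNA 2 (0.053), without scrambled siRNA 1 (0.077) and without scrambled siRNA 2 (0.074). Pdcd4 lost its call with any 1 library left out (adjusted p = 0.053 to 0.13) and with the replicate block (0.055). Mtor itself read 9.27 and 8.42 FPKM with lnc-31 siRNA, against 8.68 and 9.18 FPKM with scrambled siRNA, with overlapping groups. Mlst8, another mTORC1 subunit, read 9.01 and 9.85 FPKM with lnc-31 siRNA, against 7.46 and 8.11 FPKM with scrambled siRNA. Its direction was opposite to that of Rptor, and the difference did not pass (log2 fold change 0.25, adjusted p = 0.080, limma). Rps6, Rheb and Mknk2, the uncalled genes with the highest messages of the list, had log2 fold changes of -0.073, 0.087 and 0.029.

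Over the lists of partners of the initiation factors, elongation and termination, 2 of 22 tested genes were called (9.09%), near the 12.4% of all tested rows. Of 10 genes of the poly(A) binding protein and its partners 1 was called, Pabpc4, a cytoplasmic poly(A) binding protein, which read 81.7 and 82.7 FPKM with lnc-31 siRNA, against 98.3 and 97.7 FPKM with scrambled siRNA (log2 fold change -0.25, adjusted p = 0.018, limma). Its call was lost with any 1 library left out (adjusted p = 0.064 to 0.095). Pabpc1, the main poly(A) binding protein and a partner of eIF4G, read 719 and 744 FPKM with lnc-31 siRNA, against 747 and 770.2 FPKM with scrambled siRNA. By limma 0 of 9 tested elongation rows passed. The 1 row with an unadjusted p under 0.05 was Dohh, which completes the hypusine of eIF5A and stood higher (log2 fold change 0.12). Quantile normalization called 1 elongation row, and called it lower, opposite to the direction of Dohh. Eef1a1, which delivers aminoacyl-tRNA and had the highest message of these lists, read 4911 and 5211 FPKM with lnc-31 siRNA, against 5196 and 5483 FPKM with scrambled siRNA, and Eef2, the translocase, read 924 and 929.9 FPKM with lnc-31 siRNA, against 892 and 902 FPKM with scrambled siRNA. Of 3 tested termination genes 1 was called lower, Etf1, the release factor, which read 102 and 104 FPKM with lnc-31 siRNA, against 115 and 120.2 FPKM with scrambled siRNA (log2 fold change -0.19, adjusted p = 0.044, limma). Its call was lost with any 1 library left out (adjusted p = 0.11 to 0.18) and with a constant prior variance (0.086).

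In the pull-down, which had 1 library per probe set and no test, each probe set marked 2 of the initiation factor genes. Of 51 member genes with a RefSeq span, 2 were overlapped by a lnc-31 probe peak (3.92%), against 1.78% of 12323 genes of the table. A lacZ probe peak overlapped 2 of the 51 (3.92%), against 1.68% of genes of the table. The lists hold 596 lnc-31 probe peaks and 476 lacZ probe peaks. The value of each peak is the authors' and was read as a p-value from its range alone. The beta subunit gene of eIF2, Eif2s2, held a lnc-31 probe peak of 200 bases on chromosome 2, 154886801 to 154887000 (mm10), with a value of 0.000353. Eif4b held a lnc-31 probe peak of 400 bases on chromosome 15, 102081201 to 102081600, with a value of 0.00686. Neither gene held a lacZ peak. With lacZ probes, Eif3e held 2 peaks of 200 bases (chromosome 15, 43267401 to 43267600 and 43269801 to 43270000), and Eif3h also held 2 (51798801 to 51799000 and 51829601 to 51829800). Neither of these held a lnc-31 probe peak, so the numbers of member genes marked by the specific and by the control probes were equal. The spans of the marked genes ran from 21.5 kb (Eif2s2) and 23.4 kb (Eif4b) to 32.7 kb (Eif3e) and 78.9 kb (Eif3h), against a median of 17.4 kb for member genes and 21.4 kb for genes of the table. None of the 3 members called in the siRNA comparison held a peak of either kind. The 6 related lists have 13, 18, 10, 9, 4 and 10 rows, with Sesn2 and Ppp1r15a in more than 1 list. Among their genes 1 held a lnc-31 probe peak, beside the 1.78% of genes of the table given above. It was Abce1, a ribosome recycling factor that also binds initiation complexes, with a peak at chromosome 8, 79699801 to 79700200, and a value of 1.2e-05. This single peak is no result about the lists.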

How the data were processed

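Per the labels' protocols, the siRNA libraries were made from total RNA with a stranded mRNA kit. The authors deposited FPKM values. The submitters' processing notes list Cuffdiff, TopHat2, BWA, Bowtie2, Trimmomatic and CASAVA with the mm10 build for these libraries, and cutadapt and Picard for the pull-down. The deposited peak lists hold a last column read here as a p-value because all its values lie between 0 and 0.01. No source used here names the peak caller. FPKM is not a count and its low values showed no shared steps, so depth is unknown. The table lists rows reaching 0.307 FPKM, with 0 columns of unmapped samples.

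The 11500 rows averaging at least 1 FPKM were compared as log2(FPKM + 1) with limma 3.58.1 (R 4.3.3, trended prior, two-sided, Benjamini-Hochberg over all tested rows). This scale understates changes of low rows. The fit was tested on simulated data. Alternatives changed the pseudocount (0.1 or 0.5), the filter (5 FPKM, or none), the scaling (quantile normalization or median of ratios), the prior (constant) and the block (replicate number), or left out each library. Members and lists were chosen with earlier results of these data known. Named genes were every member, called genes of related lists and up to 3 more by level. A few further related genes were named after their values were seen. RefSeq (GRCm38.p6, with the coordinates of mm10) gave gene spans and promoters. Peaks were matched to gene bodies with an overlap of 1 base.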

Additional observations from a re-analysis of the deposited data

How the results depend on the processing

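Of 51 tested initiation factor rows, Eif4ebp1 kept its direction and its call under every alternative run. Eif2s3x kept its call under all but those without scrambled siRNA 1 or scrambled siRNA 2, and Eif2d under all but those that leave out a library. Direction held for all of these. The count of called initiation factor rows was 6 under quantile normalization (4 higher, 2 lower) and 7 under median of ratios scaling (4 higher, 3 lower), against 3, and with 1 library left out it ran from 1 to 2. The rows added were Eif1, Eif2s2 and Eif3c under both scalings, and Eif4b under median of ratios scaling. The count over all tested rows was 1928 under quantile normalization and 1933 under median of ratios scaling, and ran from 260 to 491 with 1 library left out, against 1429. Leaving out a library leaves 1 sample in an arm, which is then assumed to vary like the other group. Genes of eIF2 kinases and phosphatase gave 5 calls under median of ratios scaling, 1 with a constant prior variance and 4 with the replicate block, against 2, and 1 with any library left out. With 1 library left out, eIF4F regulators gave 2 to 5 calls, against 6, and the poly(A) binding protein list and the termination list gave 0 to 0, against 1 each. Termination gave 0 with a constant prior variance, and elongation factors gave 1 under quantile normalization, against 0. Of the genes overlapped by lnc-31 probe peaks, 1 of 2 remained with peak values of 0.001 or less, and 2 with the overlap rule of at least 50 percent of the peak. The gene that remained was Eif2s2. With lacZ probes, Eif3e (lowest value 0.000577) and Eif3h (0.000782) both kept a peak of 0.001 or less, so the control probes marked more members there.

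No called row changed sign, while 19 uncalled rows did, none of them called in the other direction. Under quantile normalization the log2 fold changes were Eif3a 0.0096, Eif3d 0.027, Eif3f 0.016, Eif4a2 0.0041, Eif4h 0.016, Eif6 0.0036. Under median of ratios scaling they were Eif3d 0.0057, Eif3f 0.0075, Eif4h 0.00045, Eif6 0.0055. With each library left out in turn the values of such rows ran as Eif1a -0.013 to 0.071, Eif1ad -0.10 to 0.00060, Eif1ax -0.13 to 0.097, Eif2b1 -0.080 to 0.12, Eif2b2 -0.061 to 0.17, Eif2b5 -0.096 to 0.0024, Eif3a -0.045 to 0.015, Eif3b -0.030 to 0.062, Eif3d -0.026 to 0.021, Eif3f -0.11 to 0.11, Eif3i -0.13 to 0.0032, Eif4g2 -0.030 to 0.0060, Eif4h -0.046 to 0.031, Ankhd1,Eif4ebp3 -0.12 to 0.048, Eif5a -0.012 to 0.049, Eif6 -0.099 to 0.094, Eif3s6-ps2 -1.44 to 0.93, Eif4a-ps4 -0.039 to 0.23. The cause was not tested. Whether the replicate numbers pair the libraries is not known, and 1 correlation of same-numbered deviations over all tested rows (-0.094) cannot settle it. With the replicate block limma called 1613 rows, 3 of them initiation factors, against 1429 rows and 3 without it. The pair of libraries per group limits what can be called, and reads per library are unknown.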
